A study of Mus musculus with 9 samples.

Results

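The genes described here encode the proteins of the cytosolic ribosome. They were chosen by symbol alone: a protein-coding mouse gene whose symbol starts with Rpl or Rps followed by a digit, p or a, without the Rps6k kinase genes and without symbols that end in -ps and a number. The rule took 86 of the 47729 genes in the count files. Of these, 52 with an Rpl symbol were counted to the large (60S) subunit and 33 with an Rps symbol to the small (40S) subunit. The symbol alone set the subunit, also for paralogs such as Rpl7l1, whose place in the ribosome was not checked. Rps19bp1, which encodes a binding partner of Rps19 and no ribosomal protein, was placed in neither. The rule leaves out Fau, a ribosomal protein made as a fusion to another protein, and its values are given separately.

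The libraries were RNA sequencing of ventral midbrain dissected from mice of 180 days on a C57BL/6J background. All mice carried Pitx3-Cre/+, a Cre recombinase expressed from the Pitx3 locus in post-mitotic dopamine neurons, and the Rosa-lox-stop-lox-YFP reporter, and they differed in Dot1l, the gene of the H3K79 methyltransferase. Dot1l(+/+) mice served as controls, Dot1l(fl/+) mice carried 1 floxed allele and Dot1l(fl/fl) mice carried 2, with exon 5 between the loxP sites. There were 3 libraries per genotype, and RNA of 3 mice was pooled for each, so that n counts pools and not animals. The labels call the tissue midbrain dopamine neurons and the series text speaks of sorted cells at E15.75, but the titles give P180 and the methods describe whole dissected tissue. Markers of other cells were abundant: 8 oligodendrocyte genes summed to between 10190 and 11700 counts per library scaled to a total of 1000000 (CPM), and 10 dopamine neuron genes to between 478 and 696. Recombined neurons were thus a part of each sample, and in such tissue fewer cells of a type and less RNA per cell cannot be told apart.

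A ribosome reads a messenger RNA on its small subunit and joins amino acids in its large subunit. Each ribosomal protein is needed in 1 copy per ribosome, apart from the acidic stalk proteins P1 and P2, so cells keep their synthesis balanced. The messenger RNAs of most of these proteins begin with a run of pyrimidines, the 5′ terminal oligopyrimidine (TOP) tract, through which growth signalling by mTOR and the RNA-binding protein Larp1 sets how well they are translated. Neurons use ribosomes in the cell body, in dendrites and in axons. Ribosomal protein genes have left many processed copies across the mouse genome, which makes short reads from them hard to place.

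Start sites are shown first because the TOP tract is the sequence that the family shares. RefSeq start windows (GRCm38.p6) were at hand for 65 of the 85 subunit members. A tract, searched as a C followed by at least 5 bases that are each C or T on the gene strand and beginning within 15 bases of the annotated start, was found in 60.0% of these 65 genes. The same search found one in 29% of all 27025 genes of that table. The word CCGGAAG, an Ets factor motif searched on both strands from 250 bases before to 50 bases after the start, was present in 40.0% of the members and in 9.93% of all genes. TATAAA, searched the same way, was present in 10.8% and 15.7%. The windows below hold 15 bases before and 15 bases from the start of members with the lowest p in the comparison of Dot1l(fl/+) with Dot1l(+/+), and of the Rps27 copies, with the tract in capitals.

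Rps21 (chr2:180257364-180257393, + strand): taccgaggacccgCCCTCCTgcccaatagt
Rpl35a (chr16:33056467-33056496, + strand): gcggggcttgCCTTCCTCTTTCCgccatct
Rps27 (chr3:90213634-90213663, - strand): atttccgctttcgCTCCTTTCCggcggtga
Rps27rt (chr9:114982725-114982754, - strand): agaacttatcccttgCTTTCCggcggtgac
Rps3 (chr7:99483695-99483724, - strand): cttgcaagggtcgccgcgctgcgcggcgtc
Rpl23 (chr11:97782425-97782454, - strand): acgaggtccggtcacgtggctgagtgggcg
Rpl41 (chr10:128549154-128549183, - strand): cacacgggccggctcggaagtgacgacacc
Rpl36al (chr12:69184053-69184082, - strand): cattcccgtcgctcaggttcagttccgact

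The first 4 windows hold a tract at an annotated start, and the last 4 hold none within 15 bases of it. Rps21 and Rpl35a have further annotated starts without one. An annotated start can lie some bases from the real one, so a window without these letters does not show that the RNA lacks the tract.

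The Rps27 family shows how far copies can be alike. The first 90 coding bases are printed for the 3 genes, with bases that differ from Rps27 in capitals.

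Rps27: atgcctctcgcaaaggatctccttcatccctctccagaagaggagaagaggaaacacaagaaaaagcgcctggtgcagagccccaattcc
Rps27rt: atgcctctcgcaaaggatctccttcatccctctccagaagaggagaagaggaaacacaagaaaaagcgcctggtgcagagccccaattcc
Rps27l: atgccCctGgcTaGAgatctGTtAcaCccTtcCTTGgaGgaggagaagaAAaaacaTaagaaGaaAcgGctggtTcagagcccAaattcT

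Rps27rt, a retrotransposed copy on chromosome 9 (GENCODE M21, 114982366 to 114982739, - strand), was identical to Rps27 on chromosome 3 (90212522 to 90213651, - strand) in all 252 coding bases. Rps27l, a further paralog on chromosome 9 (66946086 to 66949516, + strand), differed at 60 of the 252 bases. A read from the coding part of Rps27 or Rps27rt therefore fits both genes, and their counts are uncertain.

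Ribosomal protein genes gave few counts in these libraries, whose totals were 16422135 to 28403218 counts. The large subunit members took 0.141, 0.142 and 0.138% of the counts in the Dot1l(+/+) libraries, 0.138, 0.165 and 0.151% with 1 floxed allele, and 0.141, 0.150 and 0.144% with 2, in the order of replicates 1 to 3. The small subunit members took 0.0828, 0.0828 and 0.0808% in the controls, 0.0865, 0.102 and 0.0958% with 1 floxed allele, and 0.0824, 0.0969 and 0.0827% with 2. The small subunit share of every Dot1l(fl/+) library lay above those of the 3 controls. The other shares overlapped between genotypes. The 274 rows with -ps symbols, the named processed copies, took a further 0.056 to 0.072% of a library.

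Levels per length differed widely between members, on the scale of mean CPM per kilobase of exon in the Dot1l(+/+) libraries. The length is that of the merged exons of all transcripts. For many members it exceeds the length of the coding transcript, so ranks can depend on the length used. In the large subunit, Rplp1, a protein of the acidic stalk that recruits elongation factors, had the highest level at 286 CPM per kb. Rpl4, which lines the exit tunnel, followed at 141 CPM per kb, and Rpl8, which sits at the peptidyl transferase centre, at 126. The lowest were the tissue-restricted paralogs Rpl10l, listed at 0 counts in all 9 libraries, Rpl39l at 0.0190 CPM per kb and Rpl3l at 0.0913. A count of 0 allows a level of up to 0.106 to 0.183 CPM, depending on the library, and this limit covers counting error only. In the small subunit, Rps15, a protein of the head near the decoding site, had the highest level at 111 CPM per kb, and Rps3, which lines the mRNA entry channel, had 37.5. The lowest small subunit levels were 0.277 CPM per kb for Rps29, 0.299 for Rps7 and 0.339 for Rps28.

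The share of a gene's sequence that can be placed was computed as the percentage of 50-base words of its principal coding transcripts that occur in no other GENCODE M21 gene. The 21 subunit members with under 25% had a median level of 1.56 CPM per kb, with a range from 0.154 to 9.51. Members with 25 to 50%, 50 to 75% and 75 to 100% had medians of 10.2, 5.39 and 8.34 CPM per kb. Across the 85 genes, Spearman's rho between this percentage and the level was 0.27. This is a description over genes that share libraries and copies. Unannotated copies are not in this measure, and the part of read placement in the levels was not tested.

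**Figure D1:**
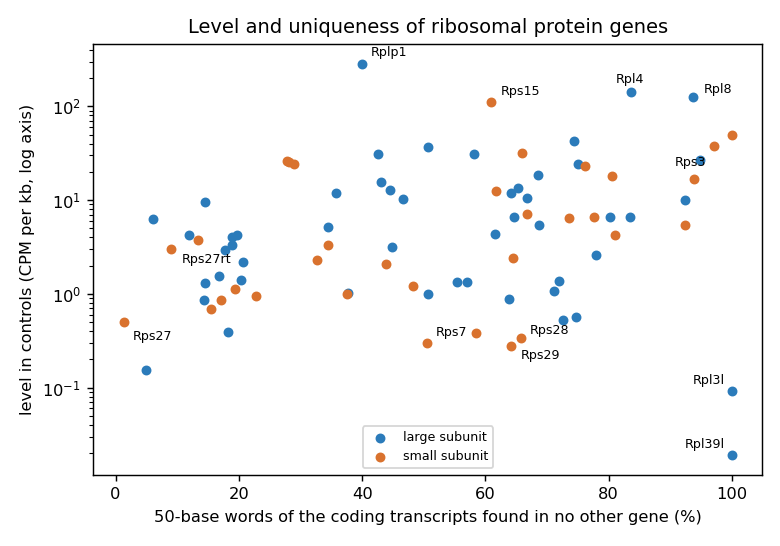
Each point is a ribosomal protein gene, with the percentage of its 50-base words found in no other gene on the x axis and its mean level in the 3 Dot1l(+/+) libraries, in CPM per kilobase on a log axis, on the y axis. The 21 genes under 25% lie between 0.154 and 9.51 CPM per kb, while Rplp1, Rpl4, Rpl8 and Rps15, all above 100, lie at 40% or more. Rpl10l, at 0 counts, is not drawn.

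Paralog pairs were unequal in level. Rpl22 had 26.9 CPM per kb in the controls and Rpl22l1 5.14, Rpl36a had 1.31 and Rpl36al 2.58, and Rpl39 had 6.56 where Rpl39l had 0.0190. The order of Rpl36a and Rpl36al depends on the length used. Their merged exons span 1655 and 1353 bases, and their longest principal coding transcripts 483 and 1276. Rpl3 had 9.51 CPM per kb, and the muscle paralog Rpl3l 0.0913. Rpl7 and Rpl7l1 were close on this scale, at 10.2 and 10.1 CPM per kb, although they share only 62.6% of aligned coding bases. Their merged exons span 2687 and 3495 bases and their longest principal coding transcripts 1163 and 2606, so another length would set them apart. Rps27l, at 6.62 CPM per kb, stood above Rps27rt at 3.04 and Rps27 at 0.504, the pair with identical coding sequence. Of Rpl36al, 78.0% of the 50-base words were unique, against 14.5% for Rpl36a. The retrocopies Rpl37rt and Rps4l are not protein-coding in GENCODE M21 and so are no members, but they took 20.1 and 10.1 CPM per kb, against 5.39 for Rpl37 and 25.9 for Rps4x. Rpl10 had 1.40 CPM per kb, against 0 for Rpl10l.

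Genotypes were compared in 1 edgeR fit of all 9 libraries, over the 17671 genes that passed the filter on low counts. It kept 48 large and 32 small subunit members. Rpl10l, Rpl39l (mean 1.67 counts per library), Rpl3l (8.11), Rpl35 (6.56) and Rps29 (6.56) did not pass and were not tested. Dot1l itself gave 85.2, 80.2 and 85.1 CPM in the controls, 84.2, 60.6 and 75.6 CPM in Dot1l(fl/+) and 82.1, 73.9 and 82.8 CPM in Dot1l(fl/fl). These groups overlapped, but the count spans exons outside the deleted one and cells without Cre, so it checks neither the labels nor the deletion.

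With 1 floxed allele, most members of both subunits had slightly higher values than with none. In Dot1l(fl/+) against Dot1l(+/+), 29 of 32 small subunit members and 34 of 48 large subunit members had a log2 fold change above 0, beside 48.9% of all genes tested. The median log2 fold change was 0.22 in the small and 0.09 in the large subunit, and 0.00 over all genes. An unadjusted p under 0.05 was reached by 10 small and 10 large subunit members, all with a positive log2 fold change, where 4.3% of all genes reached it in that direction. Among them were Rps3, Rps9, Rps14, Rps15, Rps21 and Rps27rt in the small and Rpl7, Rpl8, Rpl19, Rpl22l1, Rpl23, Rpl32, Rpl35a, Rpl36al, Rpl39 and Rpl41 in the large subunit. In the lower direction no member reached it, beside 4.09% of all genes. No member and no other gene passed an adjusted p of 0.05 in this fit, while 1483 genes or 8.39% had an unadjusted p under 0.05. The adjusted p was 0.506 for Rps21 and at least 0.541 for every other subunit member (edgeR, Benjamini-Hochberg). DESeq2 called 3 genes past an adjusted p of 0.05 on all 9 libraries, and 45 on the 6 libraries compared. All 3 Dot1l(fl/+) libraries lay above all 3 controls for 10 small and 12 large subunit members, beside 6.84% of all genes. The opposite held for 1 large subunit member, Rpl9, which was singled out after its values were seen, beside 6.47% of all genes. The study named ribosomal genes from these same samples, so these counts are not independent evidence of a direction. Leaving out Dot1l(+/+) replicate 1, Dot1l(+/+) replicate 3 or Dot1l(fl/+) replicate 1 put the large subunit median at 0.14, 0.15 and 0.15, and without Dot1l(fl/+) replicate 3 the small subunit had 6 members with an unadjusted p under 0.05. Whether the subunits differed from each other was not tested.

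The libraries of a genotype were not alike. The mean log2 CPM of the 32 small subunit members lay above the control mean by 0.12, 0.33 and 0.23 in Dot1l(fl/+) replicates 1, 2 and 3, and by 0.10, 0.24 and 0.05 in Dot1l(fl/fl). For the 48 large subunit members the Dot1l(fl/+) libraries differed by 0.02, 0.21 and 0.17, and the Dot1l(fl/fl) libraries by 0.07, 0.19 and 0.03. The highest library of both genotypes was replicate 2, and Dot1l(fl/+) replicate 1 was close to the controls in the large subunit. As group means, the small subunit of Dot1l(fl/+) lay 0.226 ± 0.107 (SD, n = 3) above the controls and that of Dot1l(fl/fl) 0.131 ± 0.0960, with an SD of 0.0550 among controls. The large subunit of Dot1l(fl/+) lay 0.131 ± 0.0977 above them and that of Dot1l(fl/fl) 0.0972 ± 0.0841, with an SD of 0.0264 among controls. In Dot1l(fl/+) replicate 2, 30 of the 32 small and 38 of the 48 large subunit members were above their control mean.

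**Figure D2:**
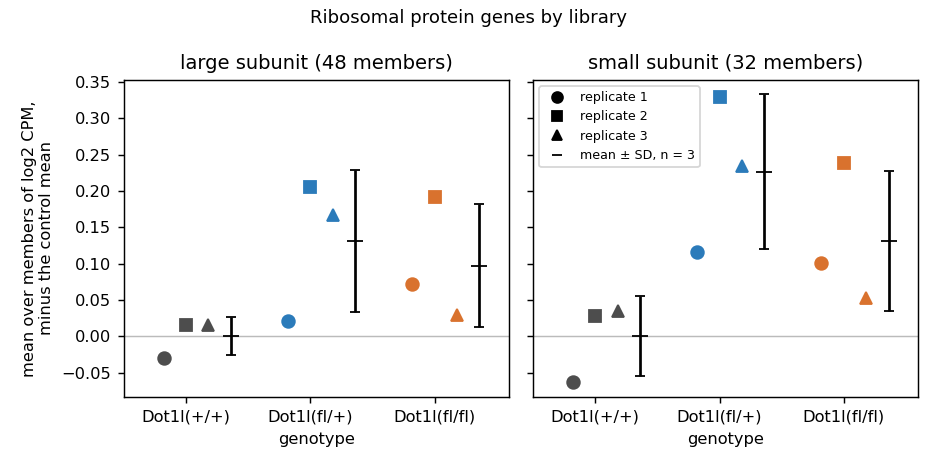
Points give, for each library, the mean over the tested members of a subunit of log2 CPM minus the mean of the 3 Dot1l(+/+) libraries, and black bars give mean ± SD of the 3 libraries of a genotype. Replicate 2 is the highest of Dot1l(fl/+) and of Dot1l(fl/fl) in both panels, and Dot1l(fl/+) replicate 1 is at 0.0205 in the large subunit.

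Other measures moved with the genotypes. The list called rRNA-like here also held Lars2, Rn7sk, Rn7s1 and Rn7s2, which are not rRNA genes. Of this list 5 genes were tested, and 4 of these had an unadjusted p under 0.05 and a positive log2 fold change in Dot1l(fl/+) against Dot1l(+/+), beside 8.39% of all genes in either direction. The summed CPM of the list was 739 to 1198 in Dot1l(fl/+), against 417 to 486 in controls and 346 to 621 in Dot1l(fl/fl). All 5 choroid plexus markers had a log2 fold change above 0 in Dot1l(fl/+), 4 of them with an unadjusted p under 0.05, with sums of 113 to 580 CPM against 65.6 to 153 in controls, and all 5 were below 0 in Dot1l(fl/fl), 2 of them with such a p beside 3.93% of all genes, at 39.1 to 45.6 CPM. All 10 dopamine neuron markers had a log2 fold change below 0 in both genotypes, 3 of them in Dot1l(fl/+) and 8 in the other with an unadjusted p under 0.05. Their sums were 630 to 696 CPM in controls, 491 to 640 CPM in Dot1l(fl/+) and 478 to 509 CPM in Dot1l(fl/fl), and none was at 0. Of 8 microglia markers, 6 were above 0 with 1 floxed allele and 7 with both, at medians of 0.14 and 0.15, and 1 in each genotype had an unadjusted p under 0.05. Their sums were 353, 371 and 363 CPM in the controls, 354, 423 and 396 CPM in Dot1l(fl/+) and 387, 417 and 390 CPM in Dot1l(fl/fl). All 3 Dot1l(fl/fl) libraries lay above all controls for 5 of these 8, or 62.5%, beside 5.03% of all genes, and all 3 Dot1l(fl/+) libraries for none. Of 8 oligodendrocyte markers, 3 had an unadjusted p under 0.05 in Dot1l(fl/+), all with a higher level, and 4 had one in Dot1l(fl/fl) against Dot1l(fl/+), all with a lower level, beside 6.48% of all genes. Of the thalamus and hypothalamus markers 5 were tested, and Pmch and Trh, which encode hypothalamic peptides, had an unadjusted p under 0.05 in Dot1l(fl/+), with a higher level there than in the controls and in Dot1l(fl/fl). Pmch gave 7.24, 0.472 and 0.751 CPM in the controls, 99.4, 0.636 and 49.6 CPM in Dot1l(fl/+) and 1.00, 0.712 and 1.58 CPM in Dot1l(fl/fl), so that its high libraries were Dot1l(fl/+) replicates 1 and 3. The list's sums were 559 to 672, 548 to 754 and 601 to 607 CPM. All 5 blood markers were below 0 in Dot1l(fl/+), 1 with such a p, and 4 were above 0 in Dot1l(fl/fl). Their sums were 99.4 to 280.2 CPM in controls, 108 to 172 CPM with 1 floxed allele and 151 to 217 CPM with both. Of 8 astrocyte, 8 endothelial, 3 GABA neuron and 6 cortex or hippocampus markers, 1 astrocyte marker in Dot1l(fl/+) and 1 cortex or hippocampus marker in Dot1l(fl/fl) had an unadjusted p under 0.05 against the controls. In Dot1l(fl/+) the rRNA-like sum was highest in replicate 1 and the choroid plexus sum in replicate 3. The microglia and astrocyte sums were highest in replicate 2 of both genotypes with floxed alleles. The same held for the mean level of both subunits, the share of the -ps copies and the summed genes of RNA polymerase I and its factors. The part of cell composition and of the rRNA-like genes in the results on ribosomal proteins was not tested. Exon length moved with the fold changes too: Spearman's rho between exon bases and log2 fold change in Dot1l(fl/+) was -0.285 over the 80 tested members and -0.259 over 17606 genes, and the median exon length was 1811 bases for large subunit members, 1782 for small subunit members and 3973 for all genes. With an offset for length and GC content, the median of the large subunit was 0.05 and that of the small subunit 0.18.

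Within the small subunit, Rps21 had the lowest p of all members. It encodes a protein of the body of the subunit that takes part in the maturation of its rRNA, and it lies on chromosome 2 (GRCm38, 180257377 to 180258445, + strand). Rps21 gave 6.43, 4.81 and 4.32 CPM in the controls, 8.54, 9.47 and 8.89 CPM in Dot1l(fl/+) and 7.04, 6.84 and 6.43 CPM in Dot1l(fl/fl). The Dot1l(fl/+) libraries lay above all 6 others, and Dot1l(fl/fl) replicate 3 met the highest control. The log2 fold change was 0.80 (SE 0.14, adjusted p = 0.506) in Dot1l(fl/+) against Dot1l(+/+), a 1.74-fold higher level. In Dot1l(fl/fl) against Dot1l(+/+) it was 0.40 (SE 0.14), and in Dot1l(fl/fl) against Dot1l(fl/+) it was -0.40 (SE 0.14). DESeq2 gave Rps21 an adjusted p of 0.0259 on all 9 libraries and 0.0109 on the Dot1l(fl/+) and Dot1l(+/+) libraries.

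Rps14 and Rps15 had more counts behind them. Rps14 encodes a platform protein of the small subunit and is linked to the 5q- anaemia of humans. It gave 42.9, 43.8 and 42.2 CPM in the controls, 48.5, 72.0 and 55.9 CPM in Dot1l(fl/+) and 50.9, 64.5 and 44.6 CPM in Dot1l(fl/fl). Every library with a floxed allele lay above every control, and replicate 2 was the highest of both genotypes. Its log2 fold change was 0.45 (SE 0.14) in Dot1l(fl/+) and 0.32 (SE 0.14) in Dot1l(fl/fl), and without replicate 2 of the respective genotype it was 0.28 and 0.16. Rps15 gave 71.5, 71.7 and 67.3 CPM in the controls, 77.9, 96.3 and 91.7 CPM in Dot1l(fl/+) and 75.7, 102 and 72.5 CPM in Dot1l(fl/fl). All 6 libraries with a floxed allele again lay above the controls, with log2 fold changes of 0.34 (SE 0.11) and 0.25 (SE 0.11). In Dot1l(fl/+) against Dot1l(+/+) the edgeR adjusted p was 0.541 for both genes. DESeq2 on the libraries of these genotypes alone put both under 0.05.

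Rps3, a protein of the mRNA entry channel, gave 170, 172 and 162 CPM in the controls, 176, 220 and 205 CPM in Dot1l(fl/+) and 167, 198 and 168 CPM in Dot1l(fl/fl). Only the Dot1l(fl/+) libraries were apart from the controls, with a log2 fold change of 0.25 (SE 0.08), against 0.08 (SE 0.08) in Dot1l(fl/fl). Rps27rt gave 1.04, 1.2 and 1.17 CPM in the controls, 1.45, 1.77 and 2.33 CPM in Dot1l(fl/+) and 1.68, 1.54 and 1.94 CPM in Dot1l(fl/fl), all above the controls. These are log2 fold changes of 0.70 (SE 0.23) and 0.58 (SE 0.24) on a mean of 38 counts, of a gene whose coding sequence is that of Rps27. The paralog Rps27l, a target of p53, had log2 fold changes of 0.07 and 0.14.

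**Figure D3:**
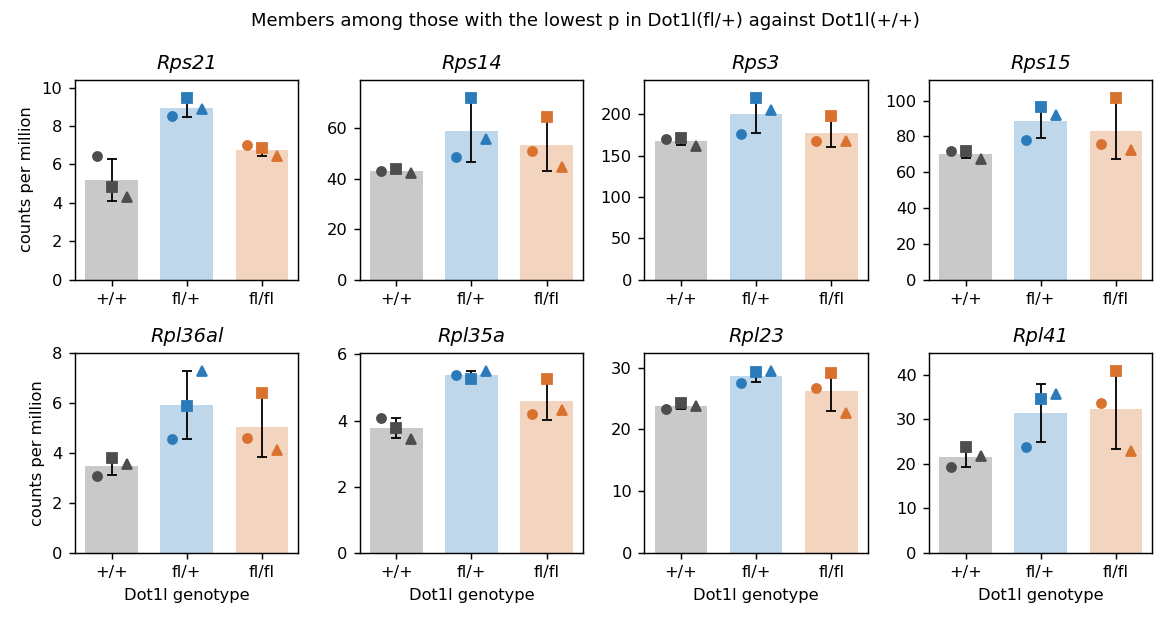
Bars give the mean CPM of 3 libraries and error bars the SD for 4 small (top) and 4 large (bottom) subunit members among those with the lowest p in Dot1l(fl/+) against Dot1l(+/+), with circles, squares and triangles for replicates 1, 2 and 3. Each gene's 3 Dot1l(fl/+) libraries lie at or above its controls, with Rps14 at 48.5, 72.0 and 55.9 CPM against 42.2 to 43.8.

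In the large subunit, the lowest p values in Dot1l(fl/+) were those of Rpl36al, Rpl35a, Rpl23 and Rpl41. Rpl36al, an expressed copy of the E-site protein Rpl36a, gave 3.07, 3.82 and 3.57 CPM in the controls, 4.58, 5.90 and 7.29 CPM in Dot1l(fl/+) and 4.60, 6.41 and 4.12 CPM in Dot1l(fl/fl). All 6 libraries with a floxed allele lay above the controls, with log2 fold changes of 0.76 (SE 0.20) and 0.54 (SE 0.20). Rpl36al shares 332 exon bases with Gm49383 on the same strand, and Rpl36a itself had log2 fold changes of 0.40 (SE 0.22) and 0.05 (SE 0.23). Rpl35a, a gene mutated in Diamond-Blackfan anaemia, gave 4.07, 3.78 and 3.46 CPM in the controls, 5.37, 5.26 and 5.5 CPM in Dot1l(fl/+) and 4.2, 5.26 and 4.31 CPM in Dot1l(fl/fl). The Dot1l(fl/+) libraries had an SD of 0.116 CPM and lay above the controls, with a log2 fold change of 0.52 (SE 0.13), and it was 0.29 (SE 0.14) in Dot1l(fl/fl). Rpl23, a protein of the interface between the subunits, gave 23.3, 24.3 and 23.8 CPM in the controls, 27.5, 29.2 and 29.5 CPM in Dot1l(fl/+) and 26.7, 29.1 and 22.8 CPM in Dot1l(fl/fl). Its Dot1l(fl/+) libraries did not overlap the controls (log2 fold change 0.27, SE 0.09), while Dot1l(fl/fl) replicate 3 was below them.

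Rpl41, the shortest ribosomal protein, gave 19.3, 23.8 and 21.6 CPM in the controls, 23.8, 34.6 and 35.7 CPM in Dot1l(fl/+) and 33.6, 40.8 and 22.8 CPM in Dot1l(fl/fl). One library of each genotype with a floxed allele was within the range of the controls or at its edge. The log2 fold change was 0.54 (SE 0.18) in Dot1l(fl/+) and 0.60 (SE 0.18) in Dot1l(fl/fl), the lowest p of all members in the latter. Without Dot1l(fl/fl) replicate 2 it was 0.40, and without replicate 3 it was 0.79. In Dot1l(fl/+) against Dot1l(+/+) the edgeR adjusted p of Rpl41 was 0.541. DESeq2 on the libraries of these genotypes alone put it under 0.05.

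With 2 floxed alleles most members were again above the controls, with smaller medians. In Dot1l(fl/fl) against Dot1l(+/+), 23 of 32 small and 34 of 48 large subunit members had a log2 fold change above 0, beside 50.4% of all genes. The medians were 0.12 and 0.06, against 0.00 over all genes. Without Dot1l(fl/fl) replicate 2 the small subunit median was 0.06, and the large subunit median was 0.10, 0.11 and 0.10 without Dot1l(+/+) replicate 2, Dot1l(+/+) replicate 3 and Dot1l(fl/fl) replicate 3. An unadjusted p under 0.05 with a higher level was found for 5 small and 8 large subunit members, where 2.21% of all genes had one. Among them were Rps14, Rps15, Rps21 and Rps27rt in the small and Rpl7a, Rpl19, Rpl28, Rpl32, Rpl36al, Rpl39, Rpl41 and Rplp0 in the large subunit. With a lower level it was found for Rps15a in the small subunit (log2 fold change -0.12, SE 0.05) and for Rpl26 in the large subunit, beside 1.72% of all genes. Rps15a was singled out after its values were seen. Without Dot1l(fl/fl) replicate 2, the counts of members with an unadjusted p under 0.05 were 2 small and 3 large, against 6 and 9 with it, and leaving out Dot1l(+/+) replicate 1 gave 2 and 4. Without Dot1l(+/+) replicate 3 the small subunit had 1. The libraries did not overlap the controls for 6 small and 6 large subunit members in the higher direction, beside 5.03% of all genes, and for 2 small subunit members, Rps15a and Rps10, in the lower direction, beside 5.25%. No gene passed an adjusted p of 0.05 in the edgeR fit of the filtered genes to all 9 libraries without a block (3 did with the replicate block, and 4 in edgeR on the 6 libraries compared), where the adjusted p was at least 0.999 for all members, 694 genes or 3.93% had an unadjusted p under 0.05, and DESeq2 called 3 genes on all 9 libraries and 8 on the 6 compared. Both comparisons with Dot1l(+/+) use the same 3 controls.

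Rplp0, Rpl32 and Rpl19 were among the members with the lowest p in this comparison. Rplp0, the base of the acidic stalk, gave 59.2, 55.1 and 38.5 CPM in the controls, 52.2, 68.4 and 46.1 CPM in Dot1l(fl/+) and 74.3, 66.5 and 62.0 CPM in Dot1l(fl/fl). The Dot1l(fl/fl) libraries lay above the controls, with a log2 fold change of 0.41 (SE 0.15), and without the low control, replicate 3, it was 0.24. Rpl32, a globular protein of the solvent side, gave 36.9, 43.1 and 42.9 CPM in the controls, 43.3, 54.3 and 48.4 CPM in Dot1l(fl/+) and 47.5, 51.7 and 46.9 CPM in Dot1l(fl/fl). Rpl32 had a log2 fold change of 0.25 in both genotypes (SE 0.09), and all 6 libraries lay above the controls. Rpl19, which forms a bridge to the small subunit, gave 2.55, 2.19 and 2.03 CPM in the controls, 3.13, 3.18 and 4.01 CPM in Dot1l(fl/+) and 4.40, 3.44 and 2.24 CPM in Dot1l(fl/fl). The log2 fold changes were 0.61 (SE 0.22) and 0.60 (SE 0.22) on a mean of 74.2 counts, and without Dot1l(fl/fl) replicate 1 the latter was 0.37.

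The other proteins of the acidic stalk had values of either sign. Rplp1 gave 142, 138 and 148 CPM in the controls, 136, 176 and 156 CPM in Dot1l(fl/+) and 116, 144 and 141 CPM in Dot1l(fl/fl). Its log2 fold changes against the controls were 0.13 (SE 0.09) and -0.10 (SE 0.09), with overlapping libraries. Rplp2 had -0.08 (SE 0.19) and 0.29 (SE 0.19) at 2.54 to 4.25 CPM.

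Set directly against each other, the genotypes with floxed alleles gave values for the small subunit that were mostly lower in Dot1l(fl/fl). In Dot1l(fl/fl) against Dot1l(fl/+), 25 of 32 small subunit members had a log2 fold change below 0, with a median of -0.09, where 50.5% of all genes were above 0. In the large subunit 28 of 48 were below 0 and the median was -0.01. Without Dot1l(fl/+) replicate 2 the small subunit median was -0.05 and the large 0.03, and leaving out Dot1l(fl/fl) replicate 2 gave -0.18 and -0.06. For the small subunit, leaving out replicate 1 of Dot1l(fl/+) gave -0.17 and leaving out replicate 1 of Dot1l(fl/fl) -0.05. An unadjusted p under 0.05 was found for Rps21, Rps10 and Rps9 in the small and for Rpl26, Rplp1 and Rpl8 in the large subunit, all with a lower level in Dot1l(fl/fl), beside 2.87% of all genes. None had one with a higher level, beside 3.6% of all genes. The count for the large subunit was 0 without Dot1l(fl/+) replicate 3, 1 without Dot1l(fl/fl) replicate 1 and 7 without Dot1l(fl/fl) replicate 2. For the small subunit it was 9 without Dot1l(fl/fl) replicate 2, and 1 without any of the 3 controls or without Dot1l(fl/fl) replicate 1 or 3. No gene passed an adjusted p of 0.05 in the edgeR fit of the filtered genes to all 9 libraries without a block (3 did with the replicate block), where the adjusted p was at least 0.712 for all members, 1145 genes or 6.48% had an unadjusted p under 0.05, and DESeq2 called 14 on all 9 libraries and 13 on the 6 compared. All 3 Dot1l(fl/fl) libraries lay below all 3 Dot1l(fl/+) libraries for 4 small (Rps21, Rps10, Rps7, Rps27a) and 2 large (Rpl26, Rpl35a) subunit members, of which Rps27a was singled out after its values were seen, beside 5.14% of all genes, and above them for none, beside 5.98%.

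Rpl26, a protein near the tunnel exit, gave 26.1, 13.1 and 28.4 CPM in the controls, 22.6, 18.5 and 29.9 CPM in Dot1l(fl/+) and 14.8, 13.8 and 18.4 CPM in Dot1l(fl/fl). Control replicate 2 lay with the Dot1l(fl/fl) libraries. The log2 fold change was -0.60 (SE 0.24) against Dot1l(fl/+) and -0.53 (SE 0.24) against Dot1l(+/+). Rps10 gave 5.29, 5.37 and 4.85 CPM in Dot1l(fl/+) against 4.48, 3.92 and 4.43 CPM in Dot1l(fl/fl), without overlap (log2 fold change -0.28, SE 0.13), and it shares 172 exon bases with RPS10-NUDT3 on the same strand. Rpl8 gave 177, 211 and 200 CPM in Dot1l(fl/+) against 165, 184 and 174 CPM in Dot1l(fl/fl), with a log2 fold change of -0.17 (SE 0.07). Rps9 had the same value of -0.17 (SE 0.08), from 63.0, 69.3 and 67.0 CPM to 58.9, 65.9 and 52.3, and Rplp1 -0.22 (SE 0.09). The libraries of Rpl8, Rps9 and Rplp1 overlapped between both genotypes. These values moved with single libraries: Rps9 was at -0.09 without Dot1l(fl/fl) replicate 3 and at -0.26 without its replicate 2, Rplp1 at -0.13 without Dot1l(fl/+) replicate 2 or Dot1l(fl/fl) replicate 1, Rpl8 at -0.11 without Dot1l(fl/+) replicate 2, and Rpl26 at -0.39 without Dot1l(fl/+) replicate 3.

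**Figure D4:**
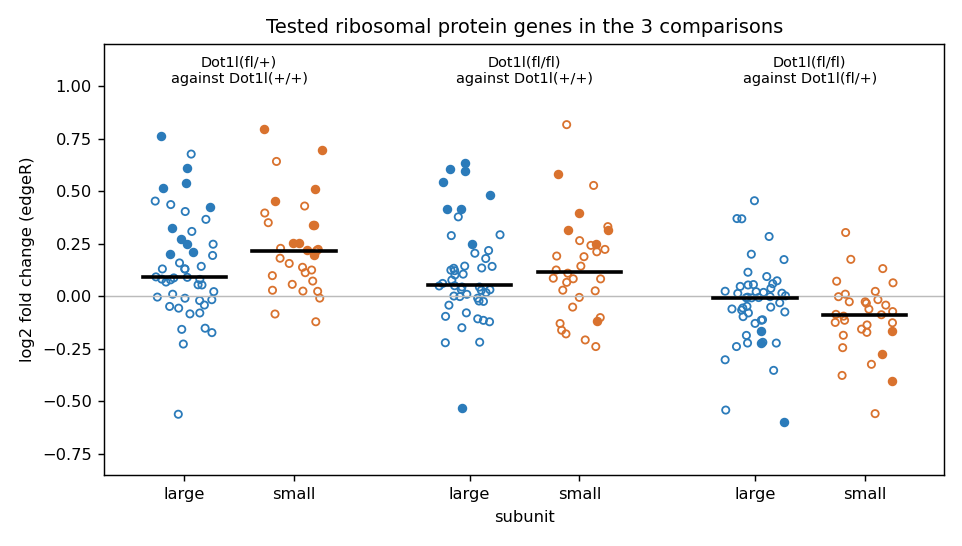
Each circle is a tested member, with its edgeR log2 fold change on the y axis, by subunit and comparison; filled circles have an unadjusted p under 0.05 and black lines are medians. The medians are 0.09 and 0.22 in Dot1l(fl/+) against Dot1l(+/+), 0.06 and 0.12 in Dot1l(fl/fl) against Dot1l(+/+), and -0.01 and -0.09 in Dot1l(fl/fl) against Dot1l(fl/+), for the large and the small subunit.

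Members were also grouped by how well short reads can be placed on them, in 4 classes of under 25%, 25 to 50%, 50 to 75% and 75 to 100% unique 50-base words. In Dot1l(fl/+) against Dot1l(+/+), 14 of 20, 14 of 17, 22 of 28 and 13 of 15 tested members had a log2 fold change above 0, with medians of 0.12, 0.13, 0.22 and 0.20. An unadjusted p under 0.05 was reached by 2, 3, 7 and 8 of them, beside 8.39% of all genes. In Dot1l(fl/fl) against Dot1l(+/+), 14, 9, 21 and 13 were above 0, with medians of 0.08, 0.01, 0.16 and 0.09, so that the class of 25 to 50% had about as many members below 0 as above. Members with a tract at an annotated start had a median of 0.13 in Dot1l(fl/+) against Dot1l(+/+), with 29 of 37 above 0, and those without one 0.15, with 18 of 24. In Dot1l(fl/fl) against Dot1l(+/+) the medians were 0.12 with a tract (29 of 37) and 0.06 without one (16 of 24). Spearman's rho between level per length and log2 fold change over the 80 members was -0.08. When the counts of the -ps copies were added to their parent genes, the medians in Dot1l(fl/+) were 0.13 for the large and 0.19 for the small subunit.

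**Figure D5:**
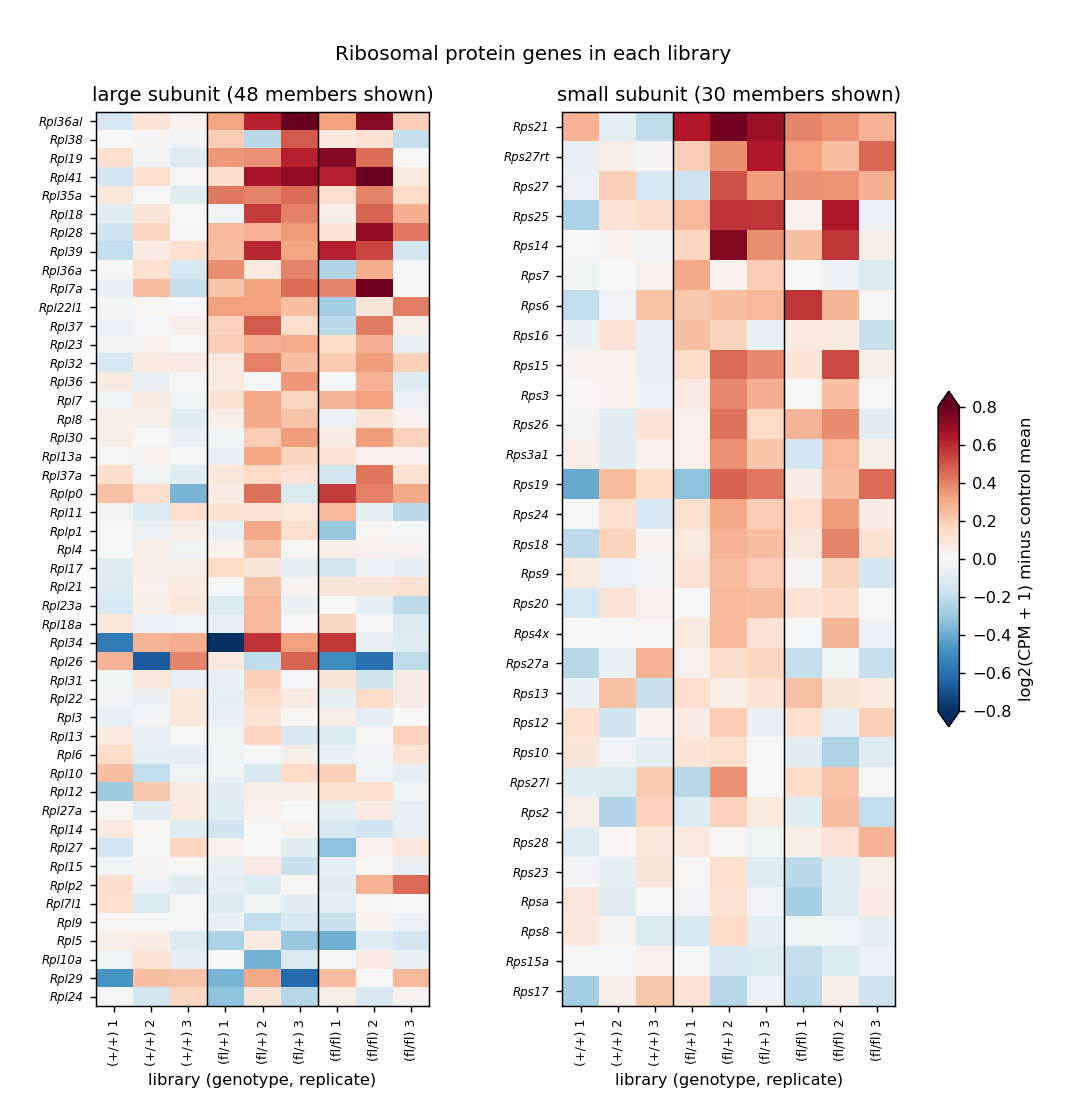
Colours give log2(CPM + 1) of the 48 tested large and 30 of the tested small subunit members in each of the 9 libraries minus the mean of the 3 Dot1l(+/+) libraries, with genes ordered by their log2 fold change in Dot1l(fl/+) and black lines between genotypes. Dot1l(fl/+) replicate 2 is above the control mean for most genes, and Rpl34, Rpl29 and Rpl26 vary as much among controls as between genotypes.

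Most members did not reach an unadjusted p under 0.05, although the share that did was above that of all genes in Dot1l(fl/+) against Dot1l(+/+), at 25% of the 80 tested beside 8.39%. In Dot1l(fl/+) against Dot1l(+/+), 38 of the 48 large and 22 of the 32 small subunit members had an unadjusted p of 0.05 or more. Among them were abundant genes such as Rpl4 (log2 fold change 0.09 and 0.04 in Dot1l(fl/+) and Dot1l(fl/fl), SE 0.06 in each) and Rpl22 (0.05 and 0.05, SE 0.07 in each). Rpl22l1, which can take the place of Rpl22, had 0.32 (SE 0.14) in Dot1l(fl/+) and 0.10 (SE 0.15) in Dot1l(fl/fl). Rpl39, whose paralog Rpl39l gave almost no counts, had 0.42 (SE 0.18) and 0.41 (SE 0.18). Rpl7 had 0.21 (SE 0.10) and 0.20 (SE 0.10), and its paralog Rpl7l1 -0.08 (SE 0.07) and -0.02 (SE 0.07). Rpl3 (0.02 and -0.01), Rpl10 (-0.01 and 0.04), Rpl37 (0.31 and 0.12) and Rps4x (0.16 and 0.08) had an unadjusted p of 0.05 or more in both. Rps27 (0.64, SE 0.41, and 0.82, SE 0.41), Rps7 (0.43, SE 0.29, and -0.13, SE 0.31) and Rps28 (0.03, SE 0.31, and 0.33, SE 0.30) rested on means of 18.3, 16.1 and 15.4 counts.

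Of the genes that were too low to test, Rpl3l gave 0.0473, 0.215 and 0.188 CPM in the controls, 0.783, 0.389 and 0.382 CPM in Dot1l(fl/+) and 0.160, 0.435 and 0.364 CPM in Dot1l(fl/fl), and Rps29 and Rpl35 were at 0.588 CPM at most. Rpl39l was at 0 in 3 libraries and at 0.182 CPM at most. Among genes beside the members, Rpl37rt gave 14.9, 15.8 and 14.6 CPM in the controls, 19.3, 25.6 and 26.2 CPM in Dot1l(fl/+) and 19.7, 30.3 and 14.2 CPM in Dot1l(fl/fl), a log2 fold change of 0.65 (SE 0.20) and 0.52 (SE 0.20). Rps4l had 0.31 (SE 0.17) and 0.00 (SE 0.17). Fau, at 0.215 to 0.705 CPM, had 0.66 (SE 0.43) and 0.71 (SE 0.44). Rps19bp1 had 0.11 (SE 0.11) and -0.11 (SE 0.11), and leaving out replicate 2 or replicate 1 of Dot1l(fl/+) put the former at 0.05 or 0.22.

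Other genes of ribosome supply were counted in the same fit. Of 19 further TOP mRNAs, among them those of elongation and initiation factors, the poly(A)-binding protein Pabpc1 and host genes of small nucleolar RNAs, 15 had a log2 fold change above 0 and 3 an unadjusted p under 0.05 in Dot1l(fl/+) against Dot1l(+/+), and 13 and 2 in Dot1l(fl/fl). The latter counts are 15.8% and 10.5% of the list, beside 8.39% and 3.93% of all genes, of which 48.9% and 50.4% were above 0. Eef1b2, a subunit of the exchange factor of elongation factor 1, gave 73.1, 74.0 and 70.2 CPM in the controls, 81.1, 97.0 and 90.2 CPM in Dot1l(fl/+) and 76.7, 86.5 and 78.2 CPM in Dot1l(fl/fl). It did not overlap the controls in either genotype, with log2 fold changes of 0.30 (SE 0.07) and 0.15 (SE 0.07). Rack1, a scaffold on the head of the small subunit, had 0.19 (SE 0.07) and 0.04 (SE 0.07), and Gas5, a snoRNA host gene, 0.25 (SE 0.10) and 0.26 (SE 0.10).

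Ribosome assembly factors and RNA polymerase I, which makes the rRNA precursor, were counted next. Of 38 assembly factors tested, 23 were above 0 in Dot1l(fl/+), in Dot1l(fl/fl) 29 were, and 2 and 1 had an unadjusted p under 0.05, shares of 5.26% and 2.63% beside 8.39% and 3.93% of all genes. Nop10, a small protein of the H/ACA particles that modify rRNA, gave 16.5, 14.0 and 16.4 CPM in the controls, 19.5, 23.5 and 23.8 CPM in Dot1l(fl/+) and 17.4, 21 and 18.7 CPM in Dot1l(fl/fl), above the controls throughout. Its log2 fold changes were 0.51 (SE 0.11) and 0.28 (SE 0.11). Rrp1 had 0.12 (SE 0.05) and 0.08 (SE 0.05), and Rrp9 0.16 (SE 0.09) and 0.17 (SE 0.09). Of 15 genes of RNA polymerase I and its factors, 10 and 8 were above 0, or 66.7% and 53.3%. An unadjusted p under 0.05 was reached by 2 and none, the former being 13.3% beside 8.39% of all genes. These were Polr2f (0.27, SE 0.12, and 0.13, SE 0.12) and Polr1c (0.22, SE 0.10, and 0.00, SE 0.10), while Polr1e had -0.01 and -0.14.

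Genes of growth control and targets of p53, which responds to failed ribosome assembly, were counted last. Of 15 growth control genes, which are those of the mTOR axis and the transcription factors Myc and Max, 7 were above 0 in Dot1l(fl/+) while in Dot1l(fl/fl) 9 were, beside 48.9% and 50.4% of all genes. None had an unadjusted p under 0.05 in either, beside 8.39% and 3.93%. The lowest p values were those of Rheb (0.13, SE 0.07) and Rps6kb1 (-0.10, SE 0.06) in Dot1l(fl/+), and of Tsc1 (-0.10, SE 0.06) and Akt1s1 (-0.11, SE 0.07) in Dot1l(fl/fl). Of 10 p53 targets tested, 5 and 4 were above 0, and 1 and none had an unadjusted p under 0.05. Trp53inp1 had -0.17 (SE 0.08) and -0.15 (SE 0.08), Mdm2, the ligase that free Rpl5 and Rpl11 bind, -0.16 (SE 0.08) and -0.05 (SE 0.08), and Phlda3 0.12 (SE 0.08) and -0.16 (SE 0.08). Between the genotypes with floxed alleles, Phlda3 had -0.28 (SE 0.08), with every Dot1l(fl/fl) library below every Dot1l(fl/+) library.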

How the data were processed

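Ventral midbrain RNA of 9 pools of mice (3 per Dot1l genotype) was sequenced by the authors on a NextSeq 500 from directional libraries and mapped to GRCm38.p4. The submitters' processing notes name bcl2fastq 2.17, Trimmomatic 0.30 and DESeq2 1.10.1. Aligner, counter, strand setting and annotation release are not given in the sources used here. The authors deposited raw counts per Ensembl gene, 16422135 to 28403218 per library. Counts were used as deposited. The authors' 3 comparison tables (DESeq2 fold changes and p-values) were not used.

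Identifiers were matched to GENCODE M21, which took 47310 of 47729 rows and 99.9% of counts. Genes kept by filterByExpr (17671) were tested with edgeR 4.0.16 (R 4.3.3, limma 3.58.1), quasi-likelihood, TMM (0.988 to 1.01), genotype as the only factor, Benjamini-Hochberg adjustment. Levels are CPM, counts scaled to a TMM-adjusted library total of 1000000, divided by kilobases of merged exons where genes are compared. Subunit means used log2 CPM with a prior count of 2. Genes varied between pools by a common coefficient of 8.81%, and chi-square per degree of freedom between replicates was 4.47 to 16.5. The fit was tested on simulated data.

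Alternatives were DESeq2 1.42.0 (9 libraries, or the 2 genotypes compared), edgeR on 2 genotypes, DESeq2's size factors, TMM computed without ribosomal protein, mitochondrial and rRNA-like genes, no filter, a minimum of 10 counts per library, a replicate block, a length and GC offset (splines with 4 degrees of freedom), both together, -ps counts added to their parents, and each library left out. A limit of a mean of 80 counts per member was added after seeing the data. Words of 50 and 75 bases were compared with all GENCODE M21 transcripts. Named genes are the 4 with the lowest p per subunit and comparison, any past the adjusted threshold, Rps14, Rps15, Rps21, Rpl41, paralog pairs, the 3 highest and lowest levels, untested members and, per pathway list, the 2 lowest p in each comparison with controls. Members and lists were chosen with earlier results of these data known. P-values measure the spread between pools. A few genes that the naming rule took are not reported here.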

Additional observations from a re-analysis of the deposited data

How the results depend on the processing

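The subunit medians kept their sign under every alternative except that of the large subunit in Dot1l(fl/fl) against Dot1l(fl/+), which was -0.01 and turned to 0.03 without Dot1l(fl/+) replicate 2. With a library left out, the medians of the large and the small subunit ranged from 0.07 to 0.15 and from 0.15 to 0.26 in Dot1l(fl/+) against Dot1l(+/+), from 0.05 to 0.11 and from 0.06 to 0.15 in Dot1l(fl/fl) against Dot1l(+/+), and from -0.08 to 0.03 and from -0.18 to -0.05 in Dot1l(fl/fl) against Dot1l(fl/+). With the length and GC offset the large subunit median in Dot1l(fl/+) against Dot1l(+/+) was 0.05 in place of 0.09.

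Counts depended on the tool. Against 0 genes past an adjusted p of 0.05 in each comparison (Dot1l(fl/+) and Dot1l(fl/fl) against Dot1l(+/+), then Dot1l(fl/fl) against Dot1l(fl/+)), DESeq2 called 3, 3 and 14 on 9 libraries and 45, 8 and 13 on 2 genotypes, edgeR on 2 genotypes called 1 and 4 in the first 2, and edgeR without a filter 251, 118 and 164. With a library left out the ranges were 0 to 5, 0 to 4 and 0 to 12. Members with an unadjusted p under 0.05 ranged from 7 to 13, 3 to 11 and 0 to 7 in the large and from 6 to 15, 1 to 8 and 1 to 9 in the small subunit with a library left out. Without a filter the large subunit had 16 in Dot1l(fl/+) (10 with it) and 5 in Dot1l(fl/fl) against Dot1l(fl/+) (3 with it), and the small subunit 5 in the latter (3 with it). The small subunit had 3 in Dot1l(fl/fl) against Dot1l(+/+) with DESeq2 on 9 libraries (6 in the report), and 1 in Dot1l(fl/fl) against Dot1l(fl/+) with DESeq2 or edgeR on 2 genotypes. The cause was not tested. DESeq2 on 2 genotypes put Rps21 (adjusted p = 0.0109), Rpl41 (0.0395), Rps14 (0.0395) and Rps15 (0.0391) past the threshold in Dot1l(fl/+).

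The study's methods speak of paired pools, but no source says that a title's number marks a pair. All 9 pairs of same-numbered libraries correlated above 0 in their deviations from group means (0.022 to 0.317), not over 0.1 in every pair, and not every library correlated best with its own number, so the numbers were not used as pairs. With the replicate block, edgeR called 0, 3 and 3 genes past an adjusted p of 0.05, and with the length and GC offset as well 3 in Dot1l(fl/fl) against Dot1l(+/+) and 4 in Dot1l(fl/fl) against Dot1l(fl/+). With the block, 13, 11 and 4 large and 11, 9 and 4 small subunit members had an unadjusted p under 0.05, against 10, 9 and 3 and 10, 6 and 3 without it, and no subunit median of the comparisons with controls moved by over 0.01. Depth limits members such as Rpl24, Rpl38 and Rps16, with means of 8.44, 8.56 and 12.9 counts.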

Other observations

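Rpl34 and Rpl29 had a wide spread within genotypes, and were chosen after their values were seen. Rpl34, a large subunit protein, gave 17.7, 32.4 and 32.9 CPM in the controls, 13.8, 40.2 and 33.7 CPM in Dot1l(fl/+) and 39.9, 25.6 and 24.9 CPM in Dot1l(fl/fl). Rpl29 gave 9.88, 16.8 and 16.6 CPM in the controls, 10.7, 17.6 and 8.78 CPM in Dot1l(fl/+) and 16.9, 14.1 and 17.0 CPM in Dot1l(fl/fl). The low libraries were replicate 1 of Dot1l(+/+) and of Dot1l(fl/+) for both genes, with replicate 3 of Dot1l(fl/+) for Rpl29. Of the 50-base words of Rpl34, 66.7% were in no other gene, and of Rpl29 44.5%.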
